A study of Mus musculus with 10 samples.

Results

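The genes described are those of the calcitonin receptor-like receptor system: the receptor Calcrl, its coreceptors Ramp1, Ramp2 and Ramp3, the ligands Adm and Adm2, and the related calcitonin receptor Calcr. They are 7 of the 55401 genes counted, and they were picked by symbol with a lower Calcrl level in liraglutide-treated tumors already known. RNA was sequenced from 10 subcutaneous KPN1.1 tumors, 5 from vehicle-treated and 5 from liraglutide-treated mice, to ask how treatment with this GLP-1 receptor agonist alters gene expression in the tumor. KPN1.1 is a mouse lung adenocarcinoma line, so every tumor derives from 1 line and its vessels and leukocytes come from the host. The hosts were male C57BL/6J mice with diet-induced obesity, aged 7 to 17 weeks when 75000 cells were injected into the flank. Once a tumor was palpable, mice received PBS vehicle or 0.2 µg liraglutide per gram of body weight by daily intraperitoneal injection, and tissue was taken 19 to 22 days after inoculation. Individual ages and harvest days were not used here, so their part in any difference was not tested.

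Calcrl is a class B G protein-coupled receptor that reaches the cell surface and selects its ligand only with a RAMP partner. With Ramp1 it forms the receptor for calcitonin gene-related peptide (CGRP, encoded by Calca and Calcb), and with Ramp2 or Ramp3 the receptors for adrenomedullin, the product of Adm. Signaling runs through Gs and cAMP. In blood and lymphatic endothelium this pathway is known for vessel growth and barrier integrity, and Adm is a well-known hypoxia-inducible gene, so Pecam1 and other endothelial genes were set beside Calcrl, and hypoxia-responsive genes beside Adm.

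Total counts per tumor lay between 9927942 and 14480593, so that 3 counts, taken as the detection floor, corresponded to 0.207 to 0.315 CPM (read counts scaled to the size of each library). Of 35141 genes with a count, 17464 were abundant enough to test, and 6 of the 7 members were among them, all but Calcr. Vehicle tumors 1 and 2 lay at one end of the first principal component (69.3 and 67.2, 48.7% of the variance) and liraglutide tumors 3 and 5 at the other (-49.7 and -49.6). Vehicle tumor 5 stood apart on the second component (54.6, next highest 18.5). By edgeR's quasi-likelihood test 0 genes passed an adjusted p of 0.05 between treatments (0% of genes tested, smallest adjusted p = 0.482), while DESeq2 called 52. At an unadjusted p under 0.05 edgeR gave 694 higher genes (3.97%) and 981 lower genes (5.62%), a split that turned to 990 higher and 619 lower when counts were scaled by library size alone.

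Calcrl and Adm were the members with appreciable RNA, and both were also the members whose treatment means differed most. In the GRCm39 annotation Calcrl lies on chromosome 2 (84160957 to 84255755, minus strand) and its canonical transcript has 16 exons. Adm lies on chromosome 7 (110226858 to 110229027, plus strand), with 4 exons in its canonical transcript. The build of the counts is given as GRCm39 in the study's methods and as mm10 in the submitters' processing notes, so the counted exons may differ from these positions. The 250 bases before each start in RefSeq (GRCm38.p6, chr2:84425267-84425516, minus strand, and chr7:110627407-110627656, plus strand) are shown 5′ to 3′ because both transcripts were lower in the same treatment group. Capitals mark the core of the motif of ETS factors (GGAA, or TTCC on the other strand), a family that includes endothelial regulators.

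Calcrl: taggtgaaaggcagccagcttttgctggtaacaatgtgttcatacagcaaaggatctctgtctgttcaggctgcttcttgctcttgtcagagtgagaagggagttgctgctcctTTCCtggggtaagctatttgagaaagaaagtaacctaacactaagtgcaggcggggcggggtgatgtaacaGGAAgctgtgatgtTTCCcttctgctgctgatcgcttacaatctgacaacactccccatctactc

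Adm: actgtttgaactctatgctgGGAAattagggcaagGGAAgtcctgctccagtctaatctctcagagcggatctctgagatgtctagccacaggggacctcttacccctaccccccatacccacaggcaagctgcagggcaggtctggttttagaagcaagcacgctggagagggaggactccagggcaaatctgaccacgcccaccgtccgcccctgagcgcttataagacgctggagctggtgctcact

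The Calcrl stretch holds 3 ETS cores and the Adm stretch 2, and 93.4% of 32851 RefSeq promoters of the same length hold at least 1. The core of the hypoxia response element was searched in both of its forms. The form ACGTG, or CACGT on the other strand, occurs in 0 of the 6 members with a RefSeq promoter and in 16.6% of all promoters. The form GCGTG, or CACGC on the other strand, was searched after seeing the data and occurs 2 times each in the Adm and Ramp3 stretches, in none of the other 4, and in 28.2% of all promoters. These letter matches cover only these 250 bases. Ramp2 had no RefSeq promoter entry.

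Among the receptor and its coreceptors, Calcrl had the largest difference between the treatment means. Its levels in vehicle tumors 1 to 5 were 122, 146, 114, 56.7 and 112 CPM, and in liraglutide tumors 1 to 5 they were 29.5, 71.0, 45.9, 67.4 and 41.4 CPM. In all, 4 vehicle tumors were above every liraglutide tumor, vehicle tumor 4 lay within the liraglutide range, and 3 liraglutide tumors were below every vehicle tumor. The means were 110 ± 32.8 and 51.0 ± 17.7 CPM (SD, n = 5 each), a log2 fold change of -1.11 (SE 0.28). Because the gene was picked for this contrast, the difference is given without a test. In bulk tumor, fewer cells of a type and less RNA per cell cannot be told apart.

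The 3 coreceptors were near the lower limit of what this depth resolves, with 13 to 31, 11 to 54 and 5 to 24 counts per tumor for Ramp1, Ramp2 and Ramp3. Ramp1, the CGRP receptor partner, measured 0.90, 2.74, 1.47, 2.59 and 1.06 CPM in vehicle tumors and 2.25, 2.53, 2.05, 2.08 and 1.34 CPM in liraglutide tumors. All liraglutide values lay inside the vehicle range, and the log2 fold change of 0.23 was smaller than its SE of 0.34. Ramp2, the main adrenomedullin receptor partner in vessels, measured 0.97, 1.93, 2.31, 2.01 and 1.87 CPM with vehicle and 1.64, 0.90, 4.09, 1.23 and 2.16 CPM with liraglutide. The groups overlapped (log2 fold change 0.16, SE 0.40), and without liraglutide tumor 3, the highest, the difference became -0.27. Ramp3, the partner of the second adrenomedullin receptor, measured 0.90, 2.43, 0.84, 0.92 and 0.65 CPM with vehicle and 0.69, 0.82, 0.91, 1.04 and 0.37 CPM with liraglutide. Vehicle tumor 2 stood above the rest, and without it the log2 fold change of -0.57 (SE 0.41) became -0.12. In the GRCm39 annotation 1109 of the 2080 bases of the canonical Ramp2 transcript also belong to its neighbor Vps25 on the same strand. Vps25 measured 38.6 ± 8.62 and 41.6 ± 4.46 CPM (SD, n = 5 each), so how reads in the shared exons were assigned may set the Ramp2 count, which is uncertain for that reason.

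The ligand Adm varied 14.4-fold among the 10 tumors. Vehicle tumors measured 31.3, 43.7, 37.0, 8.03 and 9.20 CPM and liraglutide tumors 20.8, 10.5, 3.03, 12.4 and 7.15 CPM. Vehicle tumors 1 to 3 were above every liraglutide tumor, while vehicle tumors 4 and 5 lay within the liraglutide range. The means were 25.8 ± 16.3 and 10.8 ± 6.65 CPM, with a log2 fold change of -1.26 (SE 0.56), again given without a test. Adm2, which encodes the related peptide intermedin, measured 1.52, 0.81, 1.05, 1.92 and 5.86 CPM with vehicle and 0.78, 1.22, 1.67, 1.98 and 0.37 CPM with liraglutide. A single high tumor, vehicle 5, set most of its log2 fold change of -0.91 (SE 0.58), which was -0.16 without that tumor.

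Calcr, the receptor for calcitonin and, with RAMPs, for amylin, was at the floor. It had 0 counts in 6 of the 10 tumors, 1 count each in vehicle tumor 1 and liraglutide tumors 4 and 5, and 6 counts in liraglutide tumor 1. No fold is given. Among the 6 members tested, 0 had groups that did not overlap, beside 1.49% of all genes. This count only describes genes picked on this contrast.

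**Figure D1:**
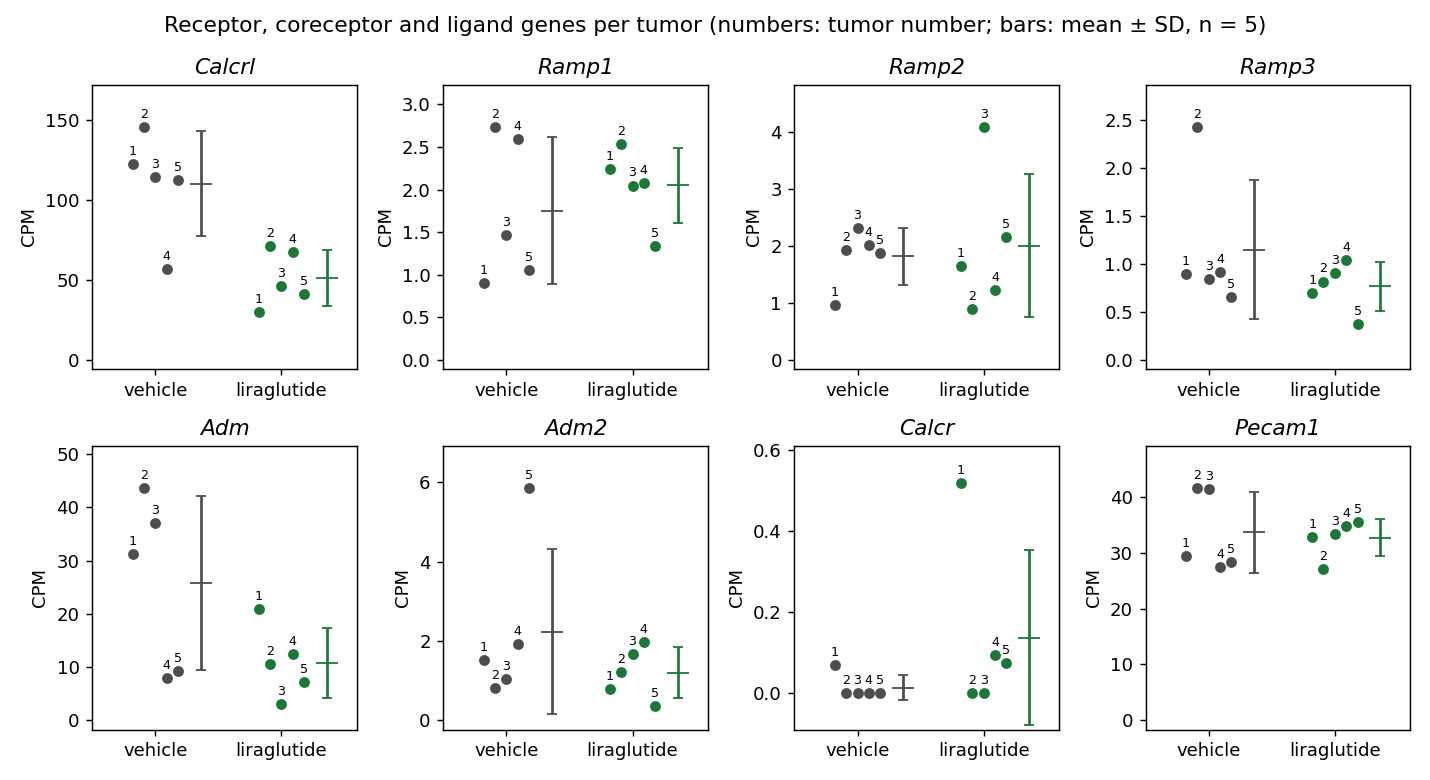
CPM (y axes, a separate linear scale per gene) of the 7 members and of Pecam1 in each vehicle (gray) and liraglutide (green) tumor, with tumor numbers above the points and mean ± SD (n = 5) at the right of each group. Calcrl in 4 vehicle tumors lies above all liraglutide tumors, Adm is highest in vehicle tumors 1 to 3, and the Pecam1 values of the groups overlap.

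Levels of different genes were compared per kilobase of canonical transcript. Over the 10 tumors Calcrl had 16.5 ± 8.18 CPM per kb and Adm 13.1 ± 10.1 CPM per kb (SD, n = 10), and Calcrl was above Adm in 7 of the 10 tumors. Pecam1, the endothelial adhesion molecule CD31, followed at 9.02 ± 1.46 CPM per kb. It was below Adm in only 5 tumors, so by this length these neighbors in the order do not differ beyond their spread. Then came Adm2 (0.986 ± 0.887), Ramp2 (0.919 ± 0.438), Ramp3 (0.77 ± 0.443) and Ramp1 (0.722 ± 0.252 CPM per kb), whose order is not resolved, since each exceeded the next in 5 or 6 of 10 tumors. With the length of all annotated exons in place of the canonical transcript, an alternative chosen after seeing the data, the order of the coreceptors changed to Ramp3, Ramp1 and Ramp2. By that length Calcrl was above Adm in 9 of the 10 tumors. Adm (11.2 ± 8.7 CPM per kb) was then above Pecam1 (3.32 ± 0.536 CPM per kb) in 9.

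Calcrl RNA exceeded the summed RNA of all 3 coreceptors in every tumor. Per kilobase the ratio of Calcrl to the RAMP sum was 16.4, 7.62, 9.99, 4.32 and 12.6 in vehicle tumors 1 to 5 and 2.75, 7.10, 2.70, 6.23 and 4.59 in liraglutide tumors 1 to 5. The ratio was lower on average with liraglutide (4.67 ± 1.99 against 10.2 ± 4.62, n = 5 each), with overlap, while the RAMP sum itself was 2.46 ± 0.932 and 2.36 ± 0.644 CPM per kb with vehicle and liraglutide. By the mean over all 10 tumors, Calcrl was above 27 of 28 endothelial genes, whose median was 1.98 CPM per kb. The exception was the VEGF receptor gene Flt1 (32.1 CPM per kb), which fell below Calcrl when all exons were used as the length. This order did not hold in each tumor. In liraglutide tumors 1 and 5 Calcrl was below Pecam1 per kilobase (ratios 0.678 and 0.878).

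**Figure D2:**
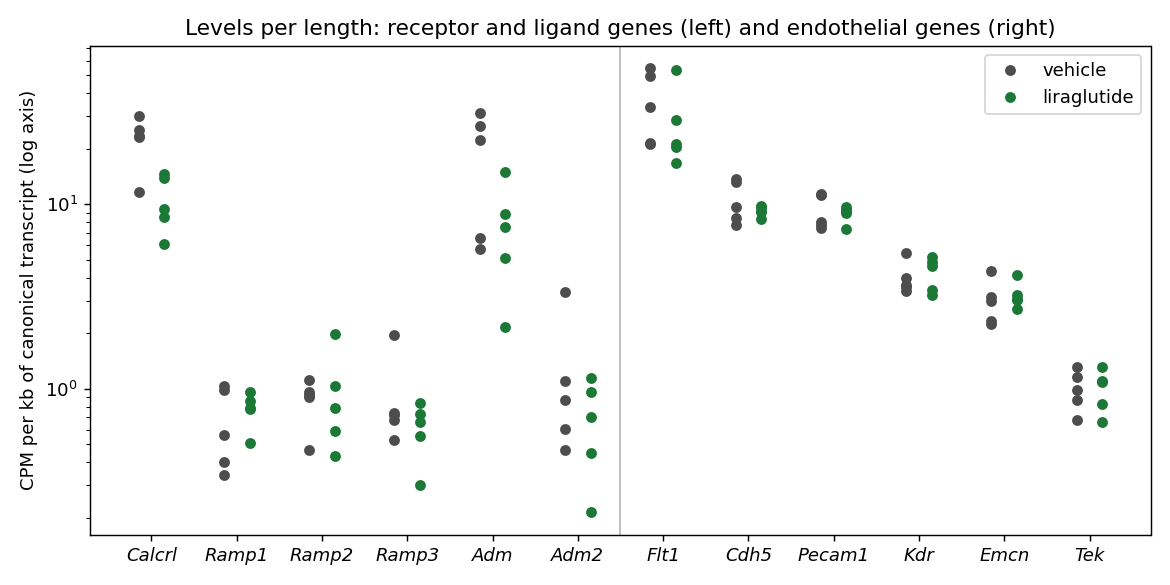
CPM per kilobase of canonical transcript (log y axis) in each vehicle (gray) and liraglutide (green) tumor for 6 members (left of the line) and 6 endothelial genes (right). Calcr is left out because 6 tumors had 0 counts. Calcrl (6.05 to 29.9) and Adm (2.17 to 31.2) overlap the abundant endothelial genes Flt1, Cdh5 and Pecam1, with their lowest tumors below the lowest Pecam1 value (7.35), and the 3 RAMP genes lie at levels near that of Tek.

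No gene of the endothelial list had a difference as large as that of Calcrl. Since Calcrl was picked for its difference in this contrast, that order is only a description. Pecam1 measured 29.4, 41.7, 41.5, 27.4 and 28.3 CPM in vehicle tumors and 32.8, 27.0, 33.3, 34.8 and 35.5 CPM in liraglutide tumors. Its means were 33.6 ± 7.28 and 32.7 ± 3.35 CPM, a log2 fold change of -0.04 (SE 0.15, edgeR adjusted p = 0.942). Of 28 endothelial genes, all tested, 18 had a log2 fold change above 0 and 10 below 0, and the median was 0.04, beside -0.02 over all genes. None passed the adjusted threshold. One, Vwf (von Willebrand factor), was lower at an unadjusted p under 0.05 (log2 fold change -0.52, SE 0.22, edgeR adjusted p = 0.515), where 5.62% of all genes were, and it missed that threshold without vehicle tumor 1, 2 or 3 or liraglutide tumor 2, 3 or 5 and with library size alone. With each tumor left out in turn, 14 to 20 of the 28 genes were on the higher side and the median ran from -0.01 to 0.12.

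Genes of vessel identity gave small differences in both directions. The log2 fold change was -0.20 for Cdh5, which encodes VE-cadherin, and -0.36 for Flt1. It was 0.09 for Kdr, the main VEGF receptor gene, 0.11 for Emcn, a capillary and venous sialomucin gene, and 0.00 for Tek, the angiopoietin receptor gene. The list ran from -0.59 for the tight junction gene Cldn5 to 0.45 for the transcription factor gene Sox7, and adjusted p-values by edgeR lay at 0.515 or above. The summed endothelial level was 445 to 768 CPM in vehicle tumors and 439 to 712 CPM in liraglutide tumors. Expressed against that list, Calcrl was 3.89 ± 0.399 log2 units above the endothelial mean with vehicle and 2.75 ± 0.528 with liraglutide. The ratio of Calcrl to Pecam1 per kilobase was 2.48 ± 0.657 with vehicle and 1.21 ± 0.519 with liraglutide, with overlapping groups. Both measures contain the Calcrl difference the gene was picked for.

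Lymphatic endothelium, the other site where Calcrl is well known, was represented at low levels. Prox1, Ccl21a and Reln were too low to test. Of the 3 lymphatic genes tested, Flt4 and Mmrn1 had log2 fold changes of 0.25 and 0.09. Lyve1, which macrophages also express, was lower at an unadjusted p under 0.05 (-1.91, SE 0.84, edgeR adjusted p = 0.515), beside 5.62% of all genes. Vehicle tumor 5 set that value: Lyve1 was 56.5 CPM there and 1.73 to 12.7 CPM in the other vehicle tumors. Without that tumor the log2 fold change was -0.45, no longer past the threshold. Lyve1 also missed the threshold without vehicle tumor 3 or liraglutide tumor 1, 2, 3 or 4. The summed lymphatic level was 9.74 to 68.9 CPM with vehicle and 10.9 to 34.2 CPM with liraglutide. Mural genes had a median log2 fold change of 0.32, with 8 of 10 tested on the higher side and Pdgfrb, the pericyte growth factor receptor gene, higher at an unadjusted p under 0.05 (0.36, SE 0.14, edgeR adjusted p = 0.503), beside 3.97% of all genes. It missed that threshold without liraglutide tumor 1, 3 or 5 or vehicle tumor 2, 4 or 5. They ran from -0.42 for Kcnj8 to 0.70 for Cox4i2, and the most abundant, Rgs5, had 0.06.

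Across the 10 tumors, Calcrl showed no detectable relation to Pecam1 (Pearson r = 0.19, permutation p = 0.592; Spearman rho = 0.176, permutation p = 0.633). With vehicle tumors 2 and 3, the farthest from the Pecam1 median, left out, r was -0.551. Against the mean of the endothelial list r was 0.248 (permutation p = 0.484; rho = 0.2, permutation p = 0.584), and -0.261 without the same pair of tumors. These were among 6 relations computed, and the adjusted permutation p was 0.774 for both r and 0.76 for both rho. With the treatment means removed, r was 0.236 for Pecam1 and 0.445 for the endothelial mean (adjusted permutation p 0.713 and 0.702). The 5 tumors of a group are too few for a correlation within treatments. Ramp1, Ramp2 and Ramp3 had r of 0.005, 0.17 and 0.263 with the endothelial mean and rho of 0.03, 0.358 and 0.261 (adjusted permutation p of r 0.99, 0.774 and 0.774, of rho 0.946, 0.76 and 0.76). Without vehicle tumors 2 and 3 these r were -0.139, 0.023 and -0.311.

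**Figure D3:**
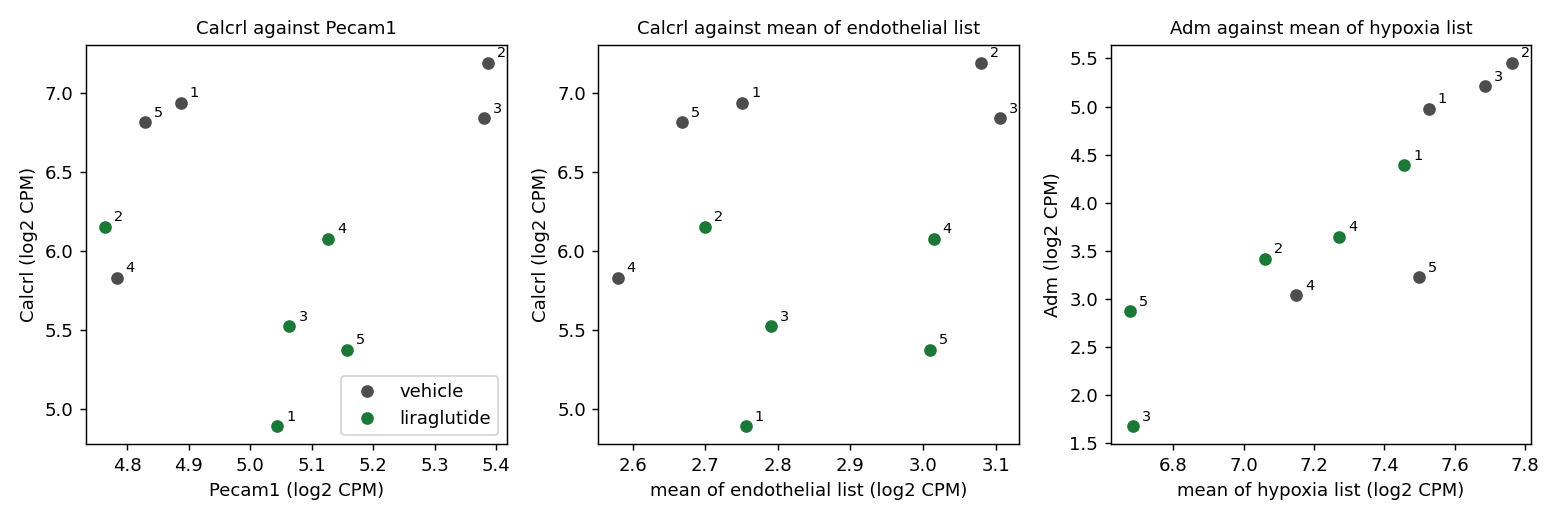
Calcrl against Pecam1 (left) and against the mean of 28 endothelial genes (middle), and Adm against the mean of 16 hypoxia genes (right), all in log2 CPM, 1 numbered point per vehicle (gray) or liraglutide (green) tumor. Calcrl scatters widely at any endothelial level (r = 0.19 and 0.248), whereas Adm rises with the hypoxia mean (r = 0.884).

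By Pearson r of log2 CPM, a description over 17463 other genes, the 10 genes closest to Calcrl over the 10 tumors were Itsn2 (0.969), Ptges3 (0.969), Isca2 (0.955), Znrf2 (0.954), Gm4610 (0.942), Cdc34 (0.941), Ptbp3 (0.937), Gspt1 (0.932), Eif4g2 (0.927) and Ube2n (0.922). None is on the endothelial list. That list holds only 28 of the 17463 genes, so its absence from the closest 10 was likely in any case. Itsn2 encodes an endocytic scaffold, Ptges3 the HSP90 cochaperone p23, and Cdc34 and Ube2n ubiquitin-conjugating enzymes. All 10 had lower means with liraglutide, with log2 fold changes between -0.80 (Gm4610) and -0.15 (Gspt1). Since the tumors of both groups entered r, a gene close to Calcrl tends to share its treatment difference, and nothing is read from this. Pecam1 ranked 6630 of 17463. The closest endothelial genes were Vwf (r = 0.672, rank 1384) and Flt1 (0.659, rank 1519), followed by Nos3, the endothelial nitric oxide synthase gene, at 0.515 and Cdh5 at 0.494, whereas Kdr and Emcn were at -0.02 and -0.04. The endothelial list had a median r of 0.02 with Calcrl, with 17 of 28 genes positive, beside -0.004 and 49.8% positive over all genes. With the treatment means removed from both, a description added after seeing the data, the median was 0.21 with 22 of 28 genes positive, beside -0.02 and 48.9% positive over all genes.

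**Figure D4:**
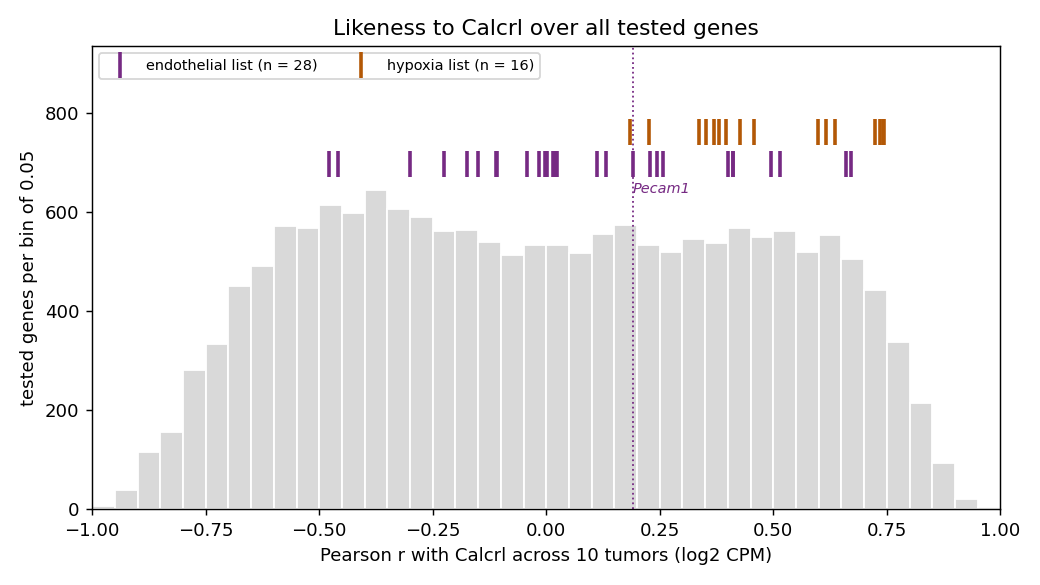
Number of tested genes (y axis) by Pearson r with Calcrl over the 10 tumors (x axis, bins of 0.05), with the 28 endothelial genes (purple ticks) and 16 hypoxia genes (orange ticks) above the bars and Pecam1 at the dotted line. Endothelial genes spread on both sides of 0 (median 0.02), while all hypoxia genes lie above 0 (median 0.44), a sign that the treatment difference they share with Calcrl favors.

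Adm, in contrast, ran with hypoxia-responsive genes, though not with these alone. Its correlation with the mean of 16 such genes was r = 0.884 (permutation p = 0.00062, adjusted 0.00372; rho = 0.891, permutation p = 0.00118, adjusted 0.00708, n = 10 tumors). It was 0.836 without liraglutide tumors 3 and 5, the farthest from the median, and 0.847 with the treatment means removed. The single highest gene of the list was Egln1 (r = 0.942), an oxygen-sensing prolyl hydroxylase gene, and the lowest was Car9, the membrane carbonic anhydrase gene (-0.15). Outside the list the nearest genes were Smtnl2 (0.976), Gm14471 (0.966), Jmjd6 (0.961), Hilpda (0.956) and Gm50126 (0.956). Hilpda encodes a hypoxia-inducible lipid droplet protein. Fibroblast and endothelial genes also ran with Adm. With the treatment means removed, a description added after seeing the data, the fibroblast list had a median r of 0.72 with 7 of 7 positive. The hypoxia list had 0.75 with 14 of 16 and the endothelial list 0.36 with 22 of 28, beside 50.7% positive over all genes. Nearest to Ramp2, whose low count is uncertain, were Fdx1 (0.901), Adgrv1 (0.883), Gm45540 (0.880), Ormdl3 (0.878) and Suclg2 (0.877). The endothelial list had a median r of 0.20 with Ramp2, with 20 of 28 genes positive, beside 48.5% positive over all genes.

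All 16 hypoxia genes had lower means with liraglutide, with a median log2 fold change of -0.55 beside -0.02 over all genes. Without vehicle tumor 5, 15 of the 16 did. At an unadjusted p under 0.05, 7 were lower (5.62% of all genes were lower at that threshold), and 0 passed the adjusted threshold. This count was 3 without liraglutide tumor 3 or 5, 4 without vehicle tumor 3 and 5 to 10 without any other single tumor. Ldha, the most abundant, encodes lactate dehydrogenase A and measured 1457 ± 230.2 and 1099 ± 96.5 CPM (log2 fold change -0.41, SE 0.12, edgeR adjusted p = 0.482). Pgk1, a glycolytic enzyme gene, was the 1 list member whose groups did not overlap (589 to 772 CPM with vehicle, 319 to 552 CPM with liraglutide; 1.49% of all genes did not overlap). The differences ranged from -0.90 for the mitophagy gene Bnip3 to -0.14 for the histone demethylase gene Kdm3a, and that of Vegfa, the main angiogenic growth factor gene, was -0.16. Over the tumors of both groups Calcrl had a positive r with all 16 of these genes (median 0.44, beside 49.8% positive over all genes), but both were lower with liraglutide, which favors that sign. With the treatment means removed, the median was 0.18 and 10 of 16 were positive.

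Leukocyte genes moved the other way from Adm over the tumors. Ptprc, the pan-leukocyte gene CD45, was at 31.7 to 41.0 CPM in the 4 tumors where Adm exceeded 20 CPM (vehicle 1 to 3 and liraglutide 1) and at 42.4 to 77.0 CPM in the other 6. The median r of 10 leukocyte genes with Adm was -0.74, with 1 of 10 positive, beside 51% positive over all genes, and -0.76 with the treatment means removed. With Calcrl it was -0.44, also with 1 of 10 positive, beside 49.8% over all genes, and -0.29 with 2 of 10 positive after the treatment means were removed. The summed leukocyte level was 111 to 227 CPM with vehicle and 142 to 259 CPM with liraglutide. Log2 fold changes ran from -0.17 for Flt3 to 1.11 for Cd3e. They were above 0 for 9 of the 10 genes tested, and none passed the unadjusted threshold. Ncr1 was too low to test. Nkx2-1, the lung lineage factor gene, was at 25.2, 17.7 and 26.6 CPM in vehicle tumors 1 to 3 and at 52.2 to 132 CPM in the other 7. Its r was -0.77 with Calcrl and -0.87 with Adm (-0.58 and -0.82 with the treatment means removed), and its log2 fold change of 0.99 (SE 0.45, edgeR adjusted p = 0.52) was the 1 epithelial difference past the unadjusted threshold (3.97% of all genes were higher at it), which it missed without vehicle tumor 1, 2 or 3 or liraglutide tumor 3, 4 or 5. Of the 6 epithelial genes 3 had a higher and 3 a lower mean with liraglutide, with 0.47 for Cdh1, 0.27 for Epcam, -0.26 for Krt8, the most abundant, and -0.33 for Krt19. The summed epithelial level was 4620 to 9720 CPM with vehicle and 4730 to 7030 CPM with liraglutide. The part of these cell type markers in the Calcrl and Adm values was not tested.

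Markers of adjacent tissue were uneven among fragments. All 6 keratinocyte genes had higher means with liraglutide and 5 passed the unadjusted threshold (3.97% of all genes were higher at it), although 0 of those 5 did so without liraglutide tumor 2. The list had summed levels of 9.05 to 20.4 CPM with vehicle and 7.17 to 215 CPM with liraglutide, and its median r with Calcrl was -0.09, or 0.47 with 6 of 6 positive once the treatment means were removed. Log2 fold changes ranged from 1.29 for Krt10 to 4.24 for Krt1, and the most abundant was Krt14 (2.36). All 7 skeletal muscle genes had higher means with liraglutide (median log2 fold change 0.74). Myh1, a fast myosin gene, passed the unadjusted threshold (1.01, SE 0.38, edgeR adjusted p = 0.499), beside 3.97% of all genes, but not without liraglutide tumor 5. The list summed to 41.4 to 270 CPM with vehicle and 89.5 to 361 CPM with liraglutide (median r with Calcrl -0.27, or 0.11 with the treatment means removed), with log2 fold changes from 0.16 for Mylpf to 1.21 for Myh4. Fibroblast genes had a median log2 fold change of 0.03, from -0.13 for Lum to 0.34 for the abundant Col1a1. The 3 adipocyte genes tested were at -0.71 (Adipoq), -0.03 (Cidec) and 0.13 (Cfd).

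The remaining genes of the receptor pathway gave small differences. Of 26 listed, 23 were tested. The CGRP genes Calca and Calcb and the amylin gene Iapp had 0 to 2 counts per tumor and were not tested. Of the 23, 15 had a higher and 8 a lower mean with liraglutide, with a median log2 fold change of 0.11 beside -0.02 over all genes. Without vehicle tumor 5 these were 12 and 11 with a median of 0.01, and without vehicle tumor 4 they were 12 and 11 with a median of 0.06. Adcy6, an adenylyl cyclase gene, was higher at an unadjusted p under 0.05 (84.8 ± 11.4 and 111 ± 22.8 CPM, log2 fold change 0.39, SE 0.16, edgeR adjusted p = 0.503), beside 3.97% of all genes, and 0 passed the adjusted threshold. With single tumors left out, 0 to 3 pathway genes were higher at the unadjusted threshold, which Adcy6 missed without vehicle tumor 1 or 2 or liraglutide tumor 1, 3, 4 or 5. The widest differences were 0.60 for Prkar1b, a protein kinase A regulatory subunit gene, and -0.37 for Ackr3, an atypical receptor gene linked to adrenomedullin clearance (46.4 ± 21.5 and 36.0 ± 14.8 CPM, edgeR adjusted p = 0.738).

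Genes that mature, degrade or assist the peptides gave no call. Pam, which amidates the carboxy terminus that adrenomedullin needs for activity, was the most abundant of the pathway at 331 ± 31.7 and 361 ± 40.6 CPM (log2 fold change 0.12). Mme, the neprilysin gene, had 0.25 and Crcp, the CGRP receptor component gene, -0.14. Gnas, the Gs alpha subunit gene, shares 9.26% of its exon bases with its antisense gene Gnasas1 and measured only 9.03 ± 3.54 and 9.10 ± 1.77 CPM. Of 10 cAMP-responsive genes, 6 had a higher and 4 a lower mean with liraglutide, from -0.55 for Fosb to 0.57 for Nr4a2, the one gene past the unadjusted threshold (SE 0.20, edgeR adjusted p = 0.482; 3.97% of all genes were higher at it), also with each tumor left out in turn. Sik1, the most abundant, had 0.30.

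**Figure D5:**
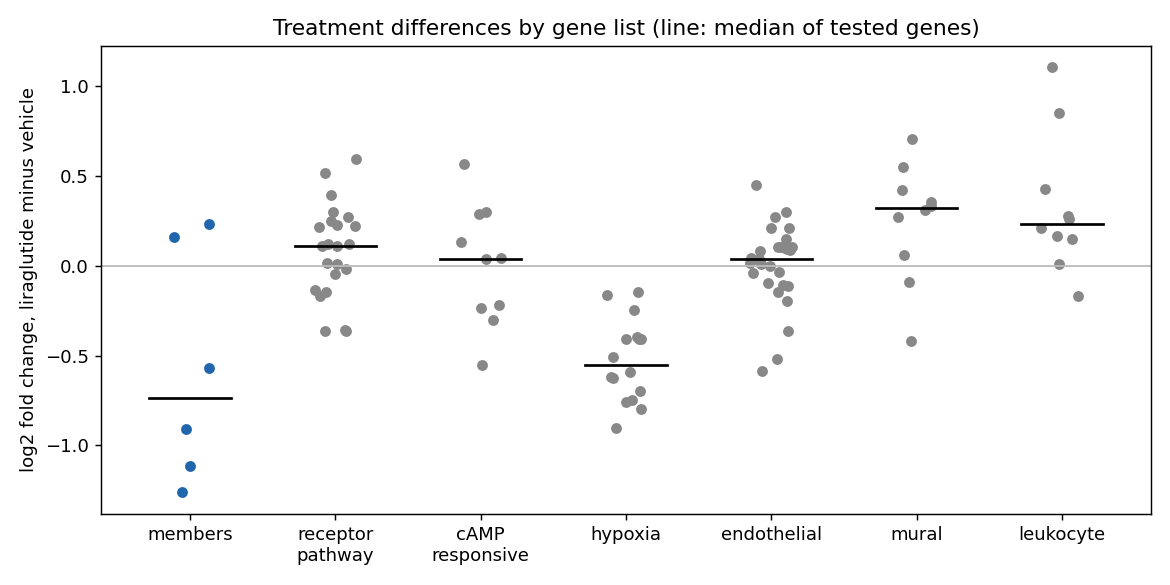
Log2 fold change of liraglutide over vehicle (y axis, above 0 is higher with liraglutide) for each tested gene of 7 lists, with the median as a black line. The members (blue) were picked with this contrast known, hypoxia genes all lie below 0 (median -0.55), and endothelial genes center near 0 (median 0.04).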

How the data were processed

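RNA of 10 tumors (5 vehicle, 5 liraglutide) was rRNA-depleted and sequenced with a strand-marking kit. The authors mapped reads with Bowtie 1.0.1 and TopHat 2.0.13 and deposited raw counts per gene from featureCounts, with no normalization. The strand setting, annotation release and handling of multimapping reads are not given in the sources used here. The study's methods name GRCm39, and the submitters' processing notes list mm10 and GRCh38. Of 55401 Ensembl identifiers, 51731 (93.38%) matched GENCODE M39 on GRCm39, 35 with the same version. That annotation gave symbols, positions and lengths, and other gene models would change the values per kilobase.

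Counts were filtered (filterByExpr, 17464 genes), scaled by TMM and fitted with edgeR 4.0.16 (quasi-likelihood test, treatment as the single factor, Benjamini-Hochberg adjustment over all genes) in R 4.3.3. The fit was tested on simulated data. CPM uses TMM-scaled totals of tested genes. Correlations used log2 CPM (prior count 2) and two-sided permutation tests with 100000 resamples, adjusted over 6 relations. The chi-square of 2 tumors of a group was at least 8.38 times its degrees of freedom. Floors cover counting error only. Labels call the samples separate tumors.

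Alternatives were DESeq2 1.42.0 (the study's tool), limma-voom (limma 3.58.1), other scaling and filters, tumor number as a block, and each tumor left out. The members and lists were chosen with earlier results of these data known. Named genes were all members, 6 fixed endothelial genes, the most abundant and the extreme genes of each list, listed peptide and receptor genes of the pathway, and the genes most correlated with Calcrl, Adm and Ramp2. Pgk1, Vegfa, Egln1, Car9, Vwf, Pdgfrb, Mmrn1, Adcy6, Nos3, Cdh1, Epcam, Myh1 and Vps25 were named after their values were seen. The full genotype of the line and some listed genes are not reported here.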

Additional observations from a re-analysis of the deposited data

Results flagged for a closer look

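Of 20 groups of 5 tumors examined, 4 held a value far from the other 4 by Dixon's criterion, and chance alone marks about 1 in 20. Ramp3 was 2.43 CPM in vehicle tumor 2, where the next highest vehicle tumor had 0.92 CPM. Adm2 was 5.86 CPM in vehicle tumor 5, with 1.92 CPM next, and this is the tumor that stood apart on the second principal component. Calcr was 0.0691 CPM in vehicle tumor 1, which is 1 count among vehicle tumors otherwise at 0, where a single count meets the criterion by construction, and 0.518 CPM in liraglutide tumor 1, which is 6 counts where the other liraglutide tumors had 0 or 1. No explanation for these values was tested.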

How the results depend on the processing

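The count of genes called between treatments was 0 under every alternative run, leaving out tumors included (smallest adjusted p 0.0526 to 0.9), except DESeq2, which called 52 of 35141 genes; the cause was not tested. Calcrl kept its sign in all 17 alternatives (log2 fold change -1.27 to -0.97 with single tumors left out), and Adm did too (-1.65 to -0.99). Calcrl was picked on this contrast and these fits reuse the same counts, so its kept sign is no separate support. Ramp2 ran from -0.27 to 0.36 with tumors left out and was negative in 2 fits, and Ramp1 from 0.06 to 0.45. With single tumors left out, r of Calcrl and Pecam1 ran from -0.0798 to 0.3195, of Ramp1 and the endothelial mean from -0.198 to 0.21, and of Ramp3 and the endothelial mean from -0.183 to 0.57. The negative values came without vehicle tumor 2 for Calcrl and Ramp3, and without vehicle tumors 1, 2 or 5 or liraglutide tumor 4 for Ramp1. For Ramp1, r was also negative, -0.0103, with treatment means removed. Adm and the hypoxia mean stayed between 0.831 and 0.95. Same-numbered tumors came from different mice and deviated together in only some pairs (correlations -0.0753 to 0.565, 1 of 5 best with its own number). With the tumor number as a replicate block, 0 genes were called (smallest adjusted p 0.228) and Calcrl stood at -1.13. Calcr could not be fitted. Depth limits the RAMP genes, Adm2 and Calcr, which had at most 72 counts in a tumor.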
